A study of Mus musculus with 12 samples.

Results

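The 37 genes described here encode integrin subunits and the proteins of the basement membrane that integrins bind. They were 10 integrin alpha subunits, 6 integrin beta subunits, 9 laminin chains, 4 collagen IV chains and 8 linkers, proteoglycans and other matrix genes, out of 35580 genes summed from the deposited transcript tables. The list was taken by gene name and covers the subunits of the most studied matrix receptors and the chains of the main basement membrane networks. RNA was sequenced from wild-type (WT) mouse embryonic stem cells (ESCs) of the R1 line and from Cidea -/- (CIDEA KO) cells derived from it, with 2 libraries per genotype and time and 12 libraries in all. At 0 h the cells were ESCs on gelatine in serum with LIF (leukaemia inhibitory factor, a cytokine that sustains naive pluripotency). At 24 h and 48 h they were spheroids grown on and under Matrigel, in medium with more serum and no LIF. Between 0 h and the spheroids, time, Matrigel, serum and the removal of LIF therefore changed together and cannot be told apart. The 24 h and 48 h spheroids were grown in the same conditions and differed in their time in them. All KO libraries came from 1 clone, in which the Cidea locus had been cut out with a pair of guide RNAs, so the loss of Cidea cannot be told apart from other differences between that clone and its parent.

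A basement membrane is a thin sheet of extracellular matrix under epithelia. Laminins, each a trimer of an alpha, a beta and a gamma chain, form a first network on the cell surface, collagen IV forms another, and nidogens and perlecan connect them. Integrins are heterodimers of an alpha and a beta subunit that bind these proteins outside the cell and the cytoskeleton inside it, and dystroglycan is a further laminin receptor. Around implantation the epiblast lies on a basement membrane made largely by the primitive endoderm, and contact with it helps to orient epiblast polarity. Matrigel is a basement membrane extract of a mouse tumour, rich in laminin, collagen IV and nidogen proteins, so the spheroids were surrounded by protein products of several of the genes measured here. RNA-sequencing does not measure that protein.

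Promoters are shown first for a pair of genes whose starts lie beside each other. Col4a1 and Col4a2, the chains of the commonest collagen IV trimer, lie head to head on chromosome 8, and both fell after 24 h. Their annotated starts, at 11312826 on the minus strand and 11312805 on the plus strand, were 21 bases apart. Promoter sequences of RefSeq (GRCm38.p6, 250 bases before and 50 after each start, 5′ to 3′) were present for 27 of the 37 genes, in 33 windows because some genes have more than one start. The capitals mark the 78 bases (chr8:11312777-11312854) that both windows hold, each read on its own strand.
Col4a1 (chr8:11312777-11313076, minus strand): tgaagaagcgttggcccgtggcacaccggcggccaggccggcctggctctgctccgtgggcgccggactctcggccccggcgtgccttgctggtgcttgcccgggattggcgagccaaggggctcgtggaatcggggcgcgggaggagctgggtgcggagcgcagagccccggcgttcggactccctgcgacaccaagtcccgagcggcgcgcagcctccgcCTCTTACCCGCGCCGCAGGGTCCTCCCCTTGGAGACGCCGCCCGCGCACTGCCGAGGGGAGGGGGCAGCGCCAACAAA
Col4a2 (chr8:11312555-11312854, plus strand): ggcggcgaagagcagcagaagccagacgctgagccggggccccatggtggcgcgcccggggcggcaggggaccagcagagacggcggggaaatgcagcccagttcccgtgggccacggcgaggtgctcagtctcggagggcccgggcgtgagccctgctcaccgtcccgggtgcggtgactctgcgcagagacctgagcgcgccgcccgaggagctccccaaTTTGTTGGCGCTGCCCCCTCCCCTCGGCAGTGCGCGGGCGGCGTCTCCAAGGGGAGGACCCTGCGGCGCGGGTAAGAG
The next pair is shown because the genes moved in opposite directions. Lamb1, the laminin beta 1 chain, rose at each step, and Nid1, the nidogen that joins laminin to collagen IV, fell at each step. Here the capitals mark every match to the GC box GGGCGG, the CCAAT box CCAAT or the TATA box TATAAA on either strand.
Lamb1 (chr12:31265043-31265342, plus strand): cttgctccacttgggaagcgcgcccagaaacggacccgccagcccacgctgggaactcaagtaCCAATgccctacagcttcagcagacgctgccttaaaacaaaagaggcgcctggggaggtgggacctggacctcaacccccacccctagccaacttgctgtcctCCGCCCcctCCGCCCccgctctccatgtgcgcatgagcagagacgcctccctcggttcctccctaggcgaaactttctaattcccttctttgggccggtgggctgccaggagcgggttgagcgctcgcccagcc
Nid1 (chr13:13437352-13437651, plus strand): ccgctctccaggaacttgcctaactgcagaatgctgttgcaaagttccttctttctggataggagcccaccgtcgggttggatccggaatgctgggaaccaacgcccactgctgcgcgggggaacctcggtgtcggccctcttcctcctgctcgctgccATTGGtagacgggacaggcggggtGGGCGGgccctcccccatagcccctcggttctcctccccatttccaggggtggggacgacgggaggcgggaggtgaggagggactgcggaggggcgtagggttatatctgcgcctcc
Lamb1 held 2 GC boxes and 1 CCAAT box, and Nid1 held 1 of each. The GC box was found in 22 of the 33 promoters of the listed genes (66.7%), beside 35.7% of all 32851 promoters in the table. The CCAAT box was found in 10 of the 33 (30.3%), beside 37.4% of all, and the TATA box in none of the 33, beside 13.6% of all. No matches overlapped in the Lamb1 and Nid1 windows, and a match is only a description of these letters.

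Estimated counts summed to 29.0 to 38.5 M per library, and an estimated count of 3, used as the floor, was 0.0779 to 0.1035 counts per M counts (CPM), which covers counting error only. Cidea itself had 89 and 67 estimated counts in WT at 0 h, 117 and 46 at 24 h and 20 and 21 at 48 h, and 0 in every KO library. Markers of other cell types were summed for each library. The summed level of 17 primitive endoderm markers was 26.0 to 35.8 TPM (transcripts per M transcripts, scaled for length and depth) in WT and 20.5 to 34.5 TPM in KO libraries, and 5 of the 17 (Foxa2, Ttr, Afp, Apoa1 and Thbd) stayed under 1 TPM in all 12. Of the 14 tested, Dab2, Cubn and Lrp2 rose from 0 h to 24 h in both genotypes, beside 7.54% of all genes in WT and 9.24% in KO cells. Gata4 (1.27 to 3.66 TPM), Gata6 and Sox17 were not called over 24 h or 48 h. Over 48 h 2 of the 14 were called higher and 1 lower in WT, beside 11.1% and 12.5% of all genes. In KO cells 2 were higher and 0 lower, beside 12.1% and 12.8%. The same shares stand beside the 48 h calls of the other marker lists below. The median log2 fold change of the 14 against 0 h was -0.55 at 24 h and -0.65 at 48 h in WT. In KO cells it was -0.21 and -0.81. The 11 trophectoderm markers summed to 32.2 to 41.4 TPM at 0 h and 39.7 to 57.2 TPM at 48 h, where Krt8 and Krt18 rose and Tfap2c fell in both genotypes and Cdx2 rose in KO cells, with Tpbpa and Prl3d1 at 0 TPM throughout. The 8 mesoderm and primitive streak markers summed to 5.961 to 9.002 TPM at 0 h and 11.9 to 14.5 TPM at 48 h, where Eomes rose in both genotypes. The 10 fibroblast and feeder markers summed to 11.8 to 27.7 TPM, and none was called between 0 h and 24 h or 48 h. The part of these cell types in the results was not tested. All 9 naive pluripotency markers fell and all 8 primed markers rose between 0 h and 48 h in both genotypes. Over all times 2 naive markers were called higher and 4 primed markers lower in KO cells, beside 2.19% and 2.84% of all genes. At 0 h the naive markers summed to 2437 and 2530 TPM in KO and 2100 and 2044 TPM in WT libraries. The primed markers summed to 95.3 and 90.2 TPM in KO and 122 and 129 TPM in WT libraries. At 48 h 0 of either list were called between genotypes, beside 0.195% higher and 0.476% lower in KO cells among all genes. In such bulk samples, fewer cells of a type and less RNA per cell cannot be told apart.

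The library labelled KO 24 h replicate 1 stood apart. It had 14443 genes with at least 3 counts, beside 16616 to 18362 in the other 11, and the pair of KO 24 h libraries differed most (32.4 per degree of freedom in a chi-square comparison of replicate counts, beside 11 to 17.8 in the other groups). In it, parts of several genes' TPM were given to short or partial transcripts. Lama1 read 11 TPM there and 5.62 TPM in the other KO 24 h library, but the full-length coding transcript Lama1-201 read 4.06 and 5.40 TPM. Lamb2 read 31.4 and 12.7 TPM, with 7.41 and 9.57 TPM in Lamb2-201. Col4a1 read 42 and 17.9 TPM, with 11.2 and 17.3 TPM in Col4a1-201. Over the 23 genes of the list with a mean of at least 5 TPM, the lowest share of the main coding transcript was 11.4% in this library (Itga9) and 23.5 to 40.6% in the others. The median share over these genes, 71.8%, lay within that of the others (66.2 to 81.3%), and the 7 genes with a share under 50% were as many as in WT 48 h replicate 2. Calls on KO 24 h that changed without the library labelled replicate 1 are given with and without it. All groups share an estimate of the spread, so leaving it out also changed calls in comparisons without KO 24 h. Among these were Lama5 in WT from 0 h to 24 h (-0.44) and from 24 h to 48 h (0.36), both then called. Not all of these are given.

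**Figure D1:**
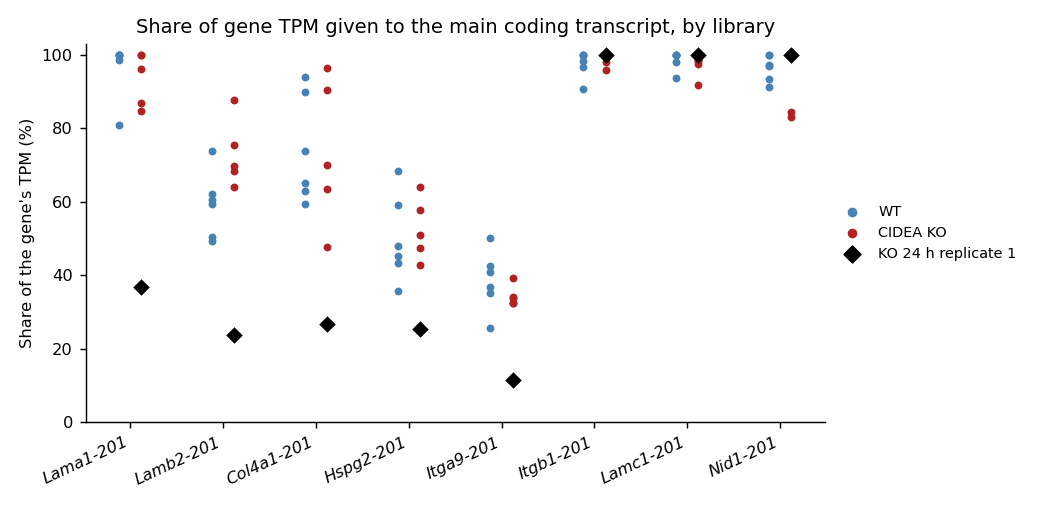
Share of each gene's TPM (y axis, %) given to its main coding transcript, for 8 genes (x axis) in each of 12 libraries, with KO 24 h replicate 1 as black diamonds. In that library Lama1-201 held 36.9%, Lamb2-201 23.6% and Col4a1-201 26.7%, each the lowest of the 12, while Itgb1-201, Lamc1-201 and Nid1-201 held 100%.

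Levels were compared between genes in TPM, since it is scaled for length, and their means over the 12 libraries ran from 0.0215 TPM (Col4a6) to 191 TPM. Fibronectin (Fn1) had the highest mean, followed by Col18a1 (149), Nid2 (125), Itga6 (109), Sparc (109) and Itgb1 (108). These ranges overlap between neighbours: Itga6 ran from 91.8 to 136 TPM, Sparc from 73.6 to 143 TPM and Itgb1 from 82.9 to 136 TPM. Dag1 (dystroglycan), Lamc1, Agrn (agrin), Nid1 and Hspg2 (perlecan) had means of 88.1, 82.0, 68.2, 36.8 and 34.9 TPM. Among the integrins, Itga6 and Itgb1, which pair as a laminin receptor, stood above Itgb5 (25.7 TPM), Itga5 (24.2), Itga9 (19.6), Itga3 (19.4), Itgav (9.64) and Itgb4 (5.99).

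Of the 37 genes, 14 had means under 5 TPM and 8 were under 1 TPM in every library. The 8 were Itga1, Itga2, Itgb6, Itgb8, Lama2, Lama4, Col4a5 and Col4a6. Itgb8 was listed at 0 in 6 libraries, including all 4 at 0 h, and read 0.0901 to 0.496 TPM in the 4 libraries at 48 h. Its adjusted p for 48 h against 0 h was 0.06 in WT and 0.13 in KO cells in edgeR's quasi-likelihood test, and in WT DESeq2 (0.011), the fit without a filter (0.031) and the fit of only the groups compared (0.02) called it higher. No fold is given against a group at 0. Col4a6 had at most 10 estimated counts in any library and was not tested. The other low genes were Lamb3 (0 to 5.0 TPM), Itgb3 (0.599 to 2.23), Lama3 (0.132 to 1.60), Itga7 (0.343 to 1.38), Itga8 (0.0521 to 1.42) and Itga4 (0.0867 to 1.12).

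**Figure D2:**
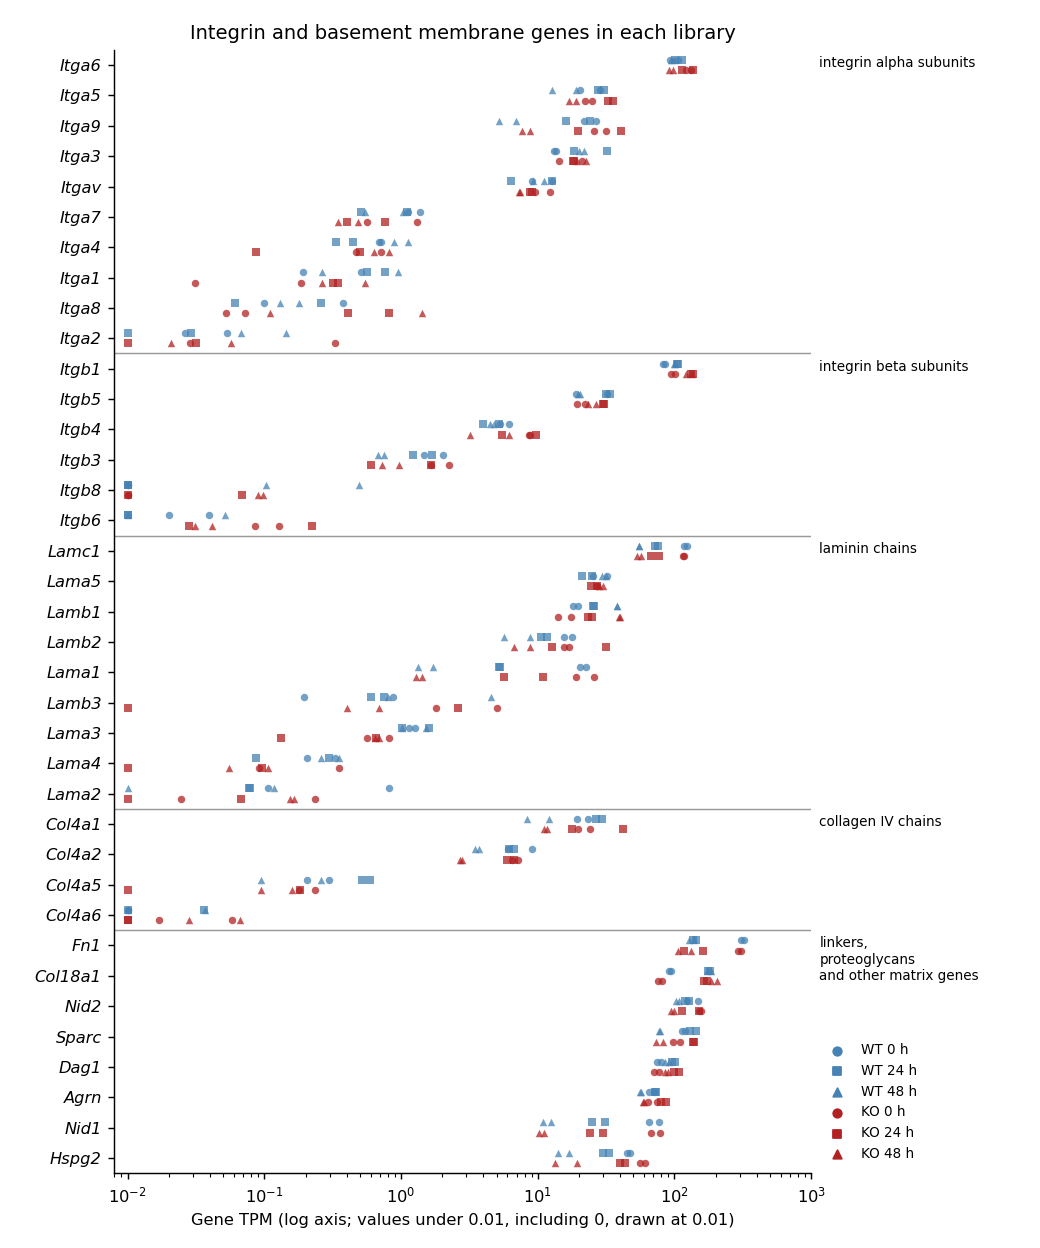
Gene TPM (x axis, log scale) of the 37 genes (rows, by class) in each library, with colour for genotype and shape for time. Values ran from 0 to 324 TPM (Fn1), and the 8 lowest genes stayed under 1 TPM in every library.

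The first comparison asked how these genes changed as ESCs became spheroids. Of the 36 genes tested, 4 rose and 16 fell between 0 h and 48 h in WT, and 4 rose and 15 fell in KO cells (edgeR's quasi-likelihood test, adjusted p under 0.05 over 17424 genes). Among all genes tested, 11.1% rose and 12.5% fell in WT and 12.1% rose and 12.8% fell in KO cells. The median log2 fold change of the 36 was -0.42 in WT and -0.40 in KO cells, beside 0.02 and 0.01 over all genes. Summed over the list, the level went from 1493 and 1416 TPM in WT at 0 h to 1320 and 1328 at 24 h and 1084 and 1108 at 48 h. In KO libraries it was 1509 and 1446, then 1383 and 1447, then 1113 and 1128 TPM, so the 48 h libraries were lowest in both genotypes. Fn1 is a large part of this fall, with a mean of 316.5 TPM at 0 h and 132.8 TPM at 48 h in WT. The integrin beta subunits did not fall in sum. They gave 123 and 111 TPM at 0 h and 127 and 126 TPM at 48 h in WT, and 126 and 132, then 165 and 152 TPM in KO libraries. The sums of the other classes were lower at 48 h than at 0 h in both genotypes. Each genotype's comparisons share libraries with one another, and their values are set side by side.

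By step, 5 genes rose and 6 fell from 0 h to 24 h in WT (7.54% and 7.47% of all genes), and 7 rose and 8 fell in KO cells (9.24% and 9.33%). From 24 h to 48 h, 1 rose and 15 fell in WT (3.28% and 4.86%), and 1 rose and 13 fell in KO cells (4.57% and 5.37%). Without KO 24 h replicate 1, the number called in KO cells was 12 rather than 15 for the first step and 15 rather than 14 for the second. Lama5 (-0.32, adjusted p = 0.098), Nid2 (-0.14, 0.35) and Itgb5 (0.48, 0.084) were the calls of the first step that edgeR's quasi-likelihood test no longer made. The other 12 calls of the first step remained, with changes from -1.99 (Lama1) to 1.09 (Col18a1). In the second step all 14 remained, with changes from -1.99 (Lama1) to 0.73 (Lamb1), and Fn1 was added (-0.42, adjusted p = 0.00049, edgeR's quasi-likelihood test). Lamb1 was the gene that rose in the second step in both genotypes.

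Among laminin chains, the alpha 1 chain fell furthest. Lama1 (chr17:67697259-67822647), the alpha chain of laminin-111, read 22.6 and 20.4 TPM in WT at 0 h, 5.18 and 5.28 at 24 h and 1.72 and 1.32 at 48 h. The KO libraries read 25.8 and 18.9, then 11 and 5.62, then 1.42 and 1.28 TPM. The 3 time points did not overlap in either genotype. From 0 h to 48 h its log2 fold change was -3.84 ± 0.15 (SE, n = 2 per group) in WT, with an adjusted p of 5.3e-13 in edgeR's quasi-likelihood test. It was -3.97 ± 0.15 in KO cells, with an adjusted p of 2.8e-13, and the fall was called at both steps in both genotypes.

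Lama5, the alpha chain of laminin-511, ended near its starting level. It read 32.4 and 25.5 TPM in WT at 0 h, 21.2 and 24.8 at 24 h and 31.6 and 29.4 at 48 h, and 26.9 and 27.0, 26.9 and 24.4, then 28.0 and 30.2 TPM in KO libraries. Its difference between 0 h and 48 h was -0.08 ± 0.14 in WT (adjusted p = 0.76, edgeR's quasi-likelihood test) and -0.11 ± 0.14 in KO cells (adjusted p = 0.69). At 24 h Lama5 was lower than at 0 h by edgeR's quasi-likelihood test in KO cells (-0.50 ± 0.14, adjusted p = 0.029), a call lost without KO 24 h replicate 1, and in WT the step was -0.45 ± 0.14 (adjusted p = 0.057). DESeq2 called that WT step (-0.45, adjusted p = 0.005) and the following rise in WT (0.38, adjusted p = 0.03) and KO cells (0.40, adjusted p = 0.022). In WT edgeR's quasi-likelihood test on only the groups compared also called both steps (-0.45 and 0.37, adjusted p = 0.0092 and 0.0028). The fit without a filter called both too, while transcript length as an offset and limma called neither. The ratio of Lama5 to Lama1 TPM went from 1.04 to 1.43 at 0 h, over both genotypes, to 2.45 to 4.70 at 24 h and 18.4 to 23.6 at 48 h. Thus the ranges of this ratio at the 3 times did not overlap.

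The beta chains moved in opposite directions. Lamb1 (chr12:31265234-31329644) read 18.2 and 19.8 TPM in WT at 0 h, 25.3 and 25.7 at 24 h and 38.0 and 38.2 at 48 h, and 17.4 and 14.1, 23.1 and 25.1, then 39.8 and 39.2 TPM in KO libraries. Its log2 fold change over 48 h, a rise, was 0.97 ± 0.09 in WT (adjusted p = 7.2e-08) and 1.43 ± 0.09 in KO cells (adjusted p = 2.4e-10) in edgeR's quasi-likelihood test, and was called at each step. In WT the call of the first step was kept in 6 of 9 other analyses and that of the second in 7. In KO cells each was kept in all 9. Lamb2, the beta 2 chain, read 15.6 and 17.9 TPM in WT at 0 h, 10.6 and 11.7 at 24 h and 5.71 and 8.74 at 48 h. In KO libraries it read 16.9 and 15.6, then 31.4 and 12.7, then 8.75 and 6.70 TPM, where 31.4 is the library that stood apart. Over 48 h Lamb2 fell by 1.23 ± 0.14 (log2) in WT (adjusted p = 2.2e-06) and by 0.92 ± 0.14 in KO cells (adjusted p = 5e-05) by edgeR's quasi-likelihood test. These calls were kept in 7 of 9 other analyses in WT and 6 of 9 in KO cells. The ratio of Lamb1 to Lamb2 was 0.904 to 1.17 at 0 h and 4.37 to 6.65 at 48 h.

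Lamc1, the gamma 1 chain shared by most laminins, was the laminin chain with the highest level. It read 123 and 118 TPM in WT at 0 h, 76.4 and 72.5 at 24 h and 54.6 and 54.8 at 48 h, and 117 and 115, 67.4 and 76.6, then 52.9 and 56.6 TPM in KO libraries. The fall of 1.10 ± 0.07 in WT and 1.09 ± 0.07 in KO cells on the log2 scale was called in both (adjusted p = 3.2e-10 and 2.9e-10, edgeR's quasi-likelihood test). The ratio of Lamc1 to the sum of Lamb1 and Lamb2 went from 3.14 to 3.87 at 0 h to 1.09 to 1.25 at 48 h. Lama2, Lama3, Lama4 and Lamb3 were low and were not called at any step in either genotype.

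The collagen IV chains fell in the second day. Col4a1 (chr8:11198423-11312826) read 19.4 and 23.4 TPM in WT at 0 h, 26.6 and 29.3 at 24 h and 12 and 8.39 at 48 h, and its full-length transcript Col4a1-201 read 18.2 and 17.3, 15.8 and 19.1, then 7.55 and 7.54 TPM. In KO libraries Col4a1-201 read 16.8 and 17.7 TPM at 0 h, 11.2 and 17.3 at 24 h and 5.28 and 7.36 at 48 h. Between 24 h and 48 h Col4a1 fell by 1.18 ± 0.12 (log2) in WT and 1.04 ± 0.12 in KO cells (adjusted p = 1.6e-06 and 5e-06, edgeR's quasi-likelihood test), while from 0 h to 24 h it was not called in either (adjusted p = 0.88 and 0.31). Col4a2 (chr8:11312805-11449287), transcribed from the facing start shown above, read 9.09 and 6.08 TPM in WT at 0 h, 6.71 and 6.16 at 24 h and 3.69 and 3.49 at 48 h. In KO libraries it read 6.46 and 7.18, then 6.69 and 5.99, then 2.72 and 2.79 TPM. From 24 h to 48 h it fell by 0.73 ± 0.16 in WT and 0.95 ± 0.17 in KO cells on the log2 scale (adjusted p = 0.007 and 0.00067, edgeR's quasi-likelihood test). The level of Col4a1 was 2.13 to 6.28 times that of Col4a2, and the highest ratio was in the library that stood apart.

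Among the linkers and proteoglycans, Nid1 and Hspg2 fell most. Nid1 (chr13:13437551-13512269) read 76.6 and 64.6 TPM in WT at 0 h, 24.9 and 30.9 at 24 h and 10.9 and 12.5 at 48 h. For KO cells the values were 78.1 and 67.7, then 24.1 and 30.0, then 10.2 and 11.1 TPM. Over 48 h it fell by 2.57 ± 0.13 in WT and 2.73 ± 0.13 in KO cells on the log2 scale (adjusted p = 3.2e-10 and 1.3e-10, edgeR's quasi-likelihood test). Nid2, the other nidogen, fell less, by 0.61 ± 0.08 and 0.56 ± 0.08 (adjusted p = 7.5e-06 and 1.8e-05, the same test), from 124 to 157 TPM at 0 h to 94.9 to 108 TPM at 48 h over both genotypes. The Nid2 to Nid1 ratio went from 1.92 to 2.24 at 0 h to 8.17 to 9.92 at 48 h. Hspg2, a large heparan sulfate proteoglycan, read 47.2 and 45.2, 33.1 and 30.1, then 17 and 14.1 TPM in WT, and 60.5 and 56.0, 43.7 and 39.8, then 13.3 and 19.5 TPM in KO libraries. Its fall over 48 h was 1.82 ± 0.22 and 2.09 ± 0.22 on the log2 scale (adjusted p = 0.00093 and 0.0004, edgeR's quasi-likelihood test).

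Fibronectin, which is bound by integrins alpha 5 beta 1 and alpha V, fell in the first day. Fn1 read 324 and 309 TPM in WT at 0 h, 136 and 143 at 24 h and 127 and 139 at 48 h, and 304 and 291, 117 and 162, then 132 and 105 TPM in KO libraries. The first step was -1.13 ± 0.14 in WT and -1.12 ± 0.14 in KO cells (adjusted p = 0.00049 and 0.00041), and the second -0.20 ± 0.14 and -0.18 ± 0.14 (adjusted p = 0.52 and 0.5), by edgeR's quasi-likelihood test. Without KO 24 h replicate 1 the KO steps were -0.89 and -0.42, and the WT second step stayed at -0.20. In that fit the second step was called in WT as well as in KO cells. Col18a1, a collagen of basement membranes whose end fragment is endostatin, rose in the same step. It read 93.6 and 90.7 TPM in WT at 0 h, 177 and 181 at 24 h and 174 and 185 at 48 h, and 81.2 and 75.4, 163 and 174, then 184 and 206 TPM in KO libraries. From 0 h to 24 h it rose by 0.87 ± 0.07 and 1.11 ± 0.07 (adjusted p = 1.6e-08 and 4.4e-10, edgeR's quasi-likelihood test). Of its annotated starts, the upstream one (Col18a1-202, start 77166548) carried 90.4 to 99.8% of its TPM in the 12 libraries.

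Sparc, a collagen-binding matrix protein, was highest at 24 h, with 143 and 130 TPM in WT and 136 and 139 TPM in KO libraries, and lowest at 48 h, with 77.4 and 78.8 TPM and 73.6 and 82.8 TPM. It fell between 24 h and 48 h in both genotypes, by 0.77 ± 0.09 and 0.76 ± 0.09 on the log2 scale (adjusted p = 5.7e-06 and 4.6e-06, edgeR's quasi-likelihood test). Agrn, a proteoglycan that joins laminin to dystroglycan, fell in that step by 0.42 ± 0.08 and 0.46 ± 0.08 (adjusted p = 0.0022 and 0.00062, the same test). Dag1 rose in the first day, by 0.28 ± 0.07 in WT and 0.38 ± 0.07 in KO cells (adjusted p = 0.006 and 0.00032, the same test), from 70.8 to 80.1 TPM at 0 h to 96.4 to 108 TPM at 24 h over both genotypes.

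**Figure D3:**
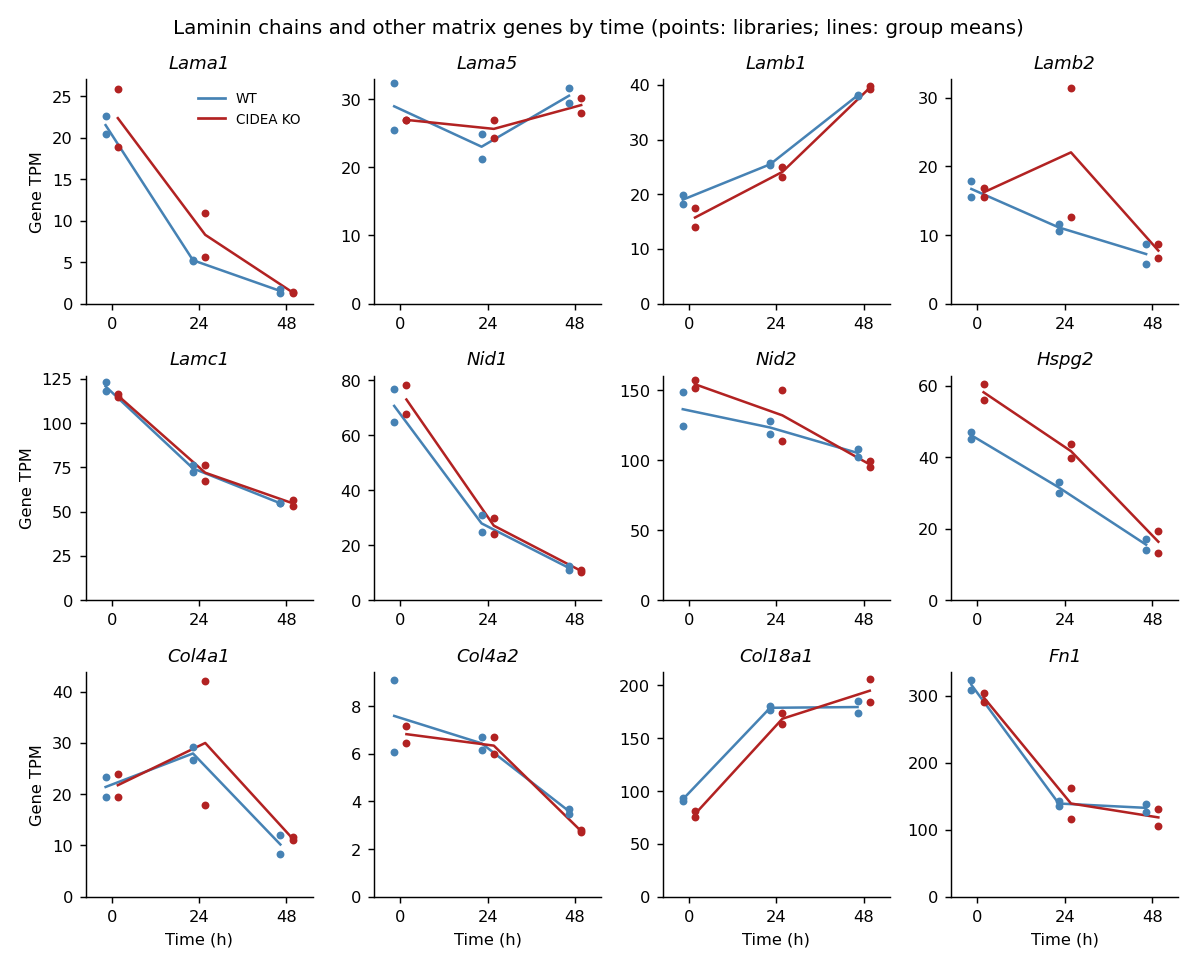
Gene TPM (y axis) against time (x axis, h) for 12 laminin and matrix genes, with a point per library and a line through the means of 2 libraries. Lama1 and Nid1 fell at each step and Lamb1 rose at each step in both genotypes, while Lama5 was at 25.5 to 32.4 TPM at 0 h and 28.0 to 31.6 TPM at 48 h.

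Among the listed integrin subunits called over 48 h, Itga9, which binds fibronectin and other matrix ligands as alpha 9 beta 1, fell most. It read 21.7 and 26.4 TPM in WT at 0 h, 24.3 and 16.1 at 24 h and 5.22 and 6.90 at 48 h, and 26.0 and 31.7, 40.4 and 19.7, then 7.70 and 8.84 TPM in KO libraries. Its coding transcript Itga9-201 read 4.60 and 6.66 TPM in the KO 24 h libraries, in the order in which the gene read 40.4 and 19.7 TPM. In KO cells the first step, -0.62 ± 0.14 (adjusted p = 0.0036, edgeR's quasi-likelihood test), was called, but with counts scaled for transcript length it was 0.01. The second day gave -1.51 ± 0.15 in WT and -1.11 ± 0.15 in KO cells (adjusted p = 1.3e-06 and 3.1e-05, edgeR's quasi-likelihood test). Itga5, the fibronectin receptor subunit, also fell in the second day, by 0.88 ± 0.11 and 0.97 ± 0.11 on the log2 scale (adjusted p = 3.2e-05 and 7.1e-06, the same test). Its levels at 24 h were 27.8 and 30.3 TPM in WT and 32.9 and 35.5 TPM in KO libraries, and at 48 h 12.6 and 19.1 and 16.8 and 19.2 TPM. In KO cells it had risen in the first day by 0.54 ± 0.11 (adjusted p = 0.0017), and in WT this step was 0.26 ± 0.11 (adjusted p = 0.13, edgeR's quasi-likelihood test).

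Itgb1, the beta subunit shared by most laminin and fibronectin receptors, rose in the first day. It read 82.9 and 84.5 TPM in WT at 0 h, 105 and 106 at 24 h and 101 and 99.7 at 48 h. In KO libraries it read 94.0 and 101, then 132 and 136, then 134 and 121 TPM, so in each genotype the spheroids were above the ESCs. The first step was 0.26 ± 0.07 in WT and 0.42 ± 0.07 in KO cells (adjusted p = 0.017 and 0.00022, edgeR's quasi-likelihood test), and the second was not called (adjusted p = 0.94 and 0.98). Itga6, its partner in the laminin receptor alpha 6 beta 1, fell by 0.27 ± 0.08 in WT and 0.50 ± 0.08 in KO cells over 48 h on the log2 scale (adjusted p = 0.022 and 0.00014, the same test). In WT its TPM at 48 h (99.9 and 94.5) lay within that at 0 h (93.1 and 106), and the call was lost when counts were scaled for transcript length and in limma on log2 TPM, where the change was as small as -0.03.

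Itga3, a further laminin-binding alpha subunit, rose in WT by 0.65 ± 0.13 over 48 h (adjusted p = 0.00086) and was at 0.28 ± 0.13 in KO cells (adjusted p = 0.13) in edgeR's quasi-likelihood test. It read 13.2 and 13.6 TPM in WT at 0 h and 21.8 and 20.0 at 48 h, beside 21.0 and 14.3 and then 19.2 and 22.6 TPM in KO libraries, and the difference between the genotypes in this change was not called (-0.37 ± 0.18, adjusted p = 0.87). Itgb4, the partner of alpha 6 in hemidesmosomes, fell by 1.06 ± 0.24 in WT and 1.05 ± 0.24 in KO cells (adjusted p = 0.0026 and 0.0025, the same test). Its TPM moved less in WT, from 5.32 and 6.19 to 4.49 and 4.80, and with counts scaled for transcript length the change was -0.34 (adjusted p = 0.6). Itgb3 fell in WT by 1.39 ± 0.46 (adjusted p = 0.035) at levels of 0.68 to 2.04 TPM, and was at -1.15 ± 0.46 in KO cells (adjusted p = 0.076, edgeR's quasi-likelihood test). Itgav was not called at any step (adjusted p from 0.45 to 0.95). Itgb5, which pairs with alpha V, fell in the second day in WT by 0.61 ± 0.15 (adjusted p = 0.015) and rose in the first day in KO cells by 0.53 ± 0.15 (adjusted p = 0.018, the same test). Over 48 h Itgb5 was not called in either (adjusted p = 0.21 and 0.52).

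**Figure D4:**
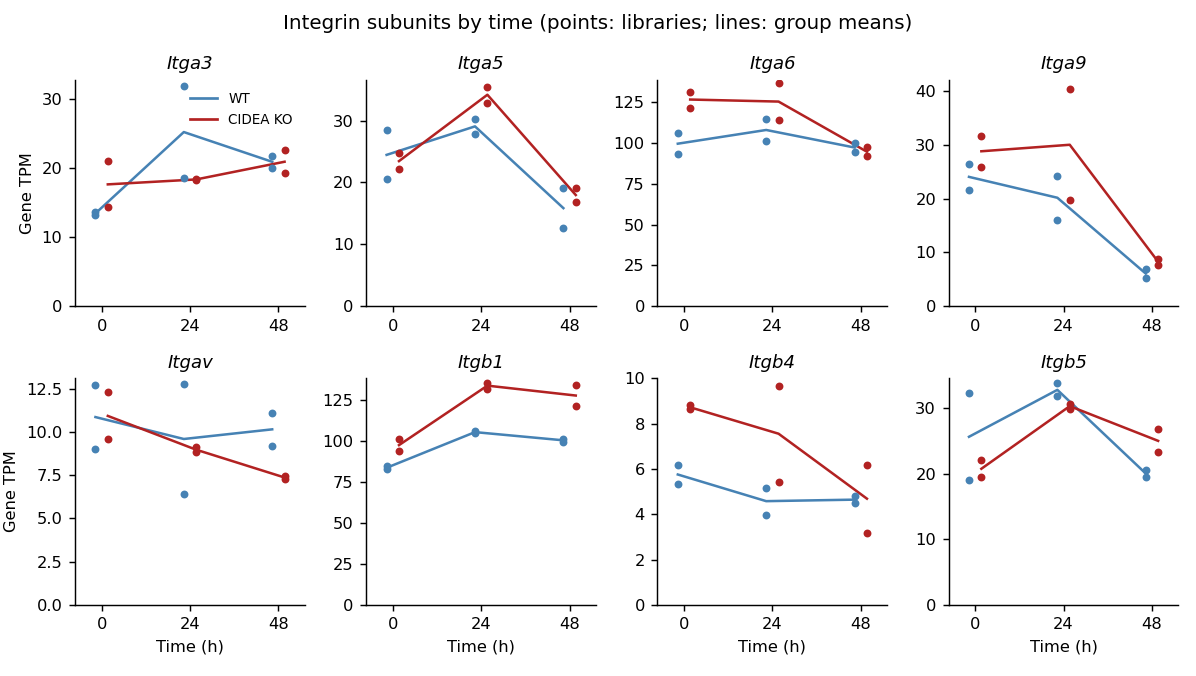
Gene TPM (y axis) against time (x axis, h) for 8 integrin subunits, with a point per library and a line through the means of 2 libraries. The KO libraries of Itgb1 lie above the WT libraries at each time, and Itga9 is at 5.22 to 8.84 TPM at 48 h in both genotypes.

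The second comparison asked which of these genes differed between CIDEA KO and WT cells. At 0 h none was called higher and 2 were called lower in KO cells, beside 0.275% and 0.987% of all genes. The count of 0 comes from edgeR's quasi-likelihood test at an adjusted p of 0.05, in which 6 of the 36 had an unadjusted p under 0.05 in either direction, and DESeq2 called 3, of which Itga6 was higher. At 24 h 1 was called higher and 0 lower, beside 0.448% and 1.02%, with 5 at an unadjusted p under 0.05 and 1 called by DESeq2. At 48 h 1 was called higher and 0 lower, beside 0.195% and 0.476%, with 4 at an unadjusted p under 0.05 and 1 called by DESeq2. Over all times 3 were called higher and 0 lower, beside 2.19% and 2.84% of all genes, with 11 at an unadjusted p under 0.05 and 6 called by DESeq2. DESeq2 added Itga5, higher in KO cells (0.21, adjusted p = 0.046), and Lama5 (-0.22, 0.038) and Lama3 (-1.04, 0.04), both lower. The fit without a filter on low counts added the same genes in the same directions. Without KO 24 h replicate 1 the number called was 0 at 24 h and 4 over all times. Without KO 24 h replicate 2, which leaves the library that stood apart as the only KO library at 24 h, it was 11 at 24 h and 12 over all times. The gene added over all times without KO 24 h replicate 1 was Hspg2, higher in KO cells by 0.21 (log2). The median log2 difference of the 36 over all times was -0.06, beside 0 over all genes.

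Itgb1 (chr8:128685654-128733200) was the gene called at 24 h, at 48 h and over all times. The 6 KO libraries, from 94.0 to 136 TPM, and the 6 WT libraries, from 82.9 to 106 TPM, overlap when pooled, but at each time both KO libraries were above both WT libraries. The log2 difference was 0.18 ± 0.07 at 0 h (adjusted p = 0.37), 0.34 ± 0.07 at 24 h (adjusted p = 0.016), 0.37 ± 0.07 at 48 h (adjusted p = 0.016) and 0.30 ± 0.04 over all times (adjusted p = 0.00013), by edgeR's quasi-likelihood test. The last is 1.23-fold, and it was called in each of 8 other analyses and with each library left out in turn, at 0.27 to 0.32. The call at 24 h was lost without KO 24 h replicate 1 (0.33, adjusted p = 0.054) and without either WT 24 h library (0.31 and 0.38, adjusted p = 0.28 and 0.074). At 48 h it was lost without KO 48 h replicate 1 (0.28, adjusted p = 0.27) and without either WT 48 h library (0.37 and 0.36, adjusted p = 0.13 and 0.16). These left-out fits used edgeR's quasi-likelihood test and assume that the lone library varies like the other groups.

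Itga6 (0.19 ± 0.05, adjusted p = 0.026) and Lamb2 (0.34 ± 0.08, adjusted p = 0.016) were the other genes higher in KO cells over all times in edgeR's quasi-likelihood test. Itga6 read 122 and 132 TPM in KO libraries at 0 h, above 93.1 and 106 TPM in WT, 114 and 136 against 102 and 114 TPM at 24 h, and 97.4 and 91.8 against 99.9 and 94.5 TPM at 48 h. The groups did not overlap at 0 h and overlapped at 24 h and 48 h. Lamb2-201, the full-length transcript, read 11.8 and 10.7 against 9.43 and 9.01 TPM at 0 h, 7.41 and 9.57 against 7.78 and 6.94 TPM at 24 h, and 5.60 and 5.87 against 3.55 and 4.31 TPM at 48 h. Without KO 24 h replicate 1 the values were 0.22 for Itga6 and 0.35 for Lamb2 (adjusted p = 0.0032 and 0.0084, edgeR's quasi-likelihood test). With each of the 12 libraries left out in turn, the Itga6 call was lost without WT 0 h replicate 1, WT 24 h replicate 1, either WT 48 h library, KO 0 h replicate 2 or KO 48 h replicate 1 (0.16 to 0.20, adjusted p = 0.054 to 0.11, the same test). The Lamb2 call was lost without WT 24 h replicate 2, WT 48 h replicate 1 or KO 0 h replicate 1 (0.29 to 0.32, adjusted p = 0.054 to 0.065, the same test). Both calls were lost when counts were scaled for transcript length (adjusted p = 0.25 and 0.52).

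At 0 h Lamb1 (-0.39 ± 0.09, adjusted p = 0.029) and Col18a1 (-0.29 ± 0.07, adjusted p = 0.03) were lower in KO cells in edgeR's quasi-likelihood test. Their TPM at 0 h was 17.4 and 14.1 against 18.2 and 19.8 for Lamb1 and 81.2 and 75.4 against 93.6 and 90.7 for Col18a1, so the KO libraries were below the WT libraries. At 48 h the differences were 0.08 ± 0.09 and 0.13 ± 0.07 (adjusted p = 1 and 0.71, the same test). The calls at 0 h were lost without either WT 0 h library or either KO 0 h library, with values of -0.46 to -0.31 for Lamb1 and -0.33 to -0.25 for Col18a1.

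Whether the change with time differed between the genotypes was tested by interaction terms. None of the 36 genes was called at 24 h or 48 h, beside 0.0115% and 0.0402% of all genes, with 5 and 3 of the 36 at an unadjusted p under 0.05 in edgeR's quasi-likelihood test. DESeq2 called 0 at 24 h and 2 at 48 h, which were Col18a1 (0.42, adjusted p = 0.0012) and Lamb1 (0.46, adjusted p = 0.028), both rising further in KO cells. In edgeR's quasi-likelihood test the same terms were 0.42 ± 0.09 (adjusted p = 0.17) and 0.47 ± 0.12 (adjusted p = 0.31).

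**Figure D5:**
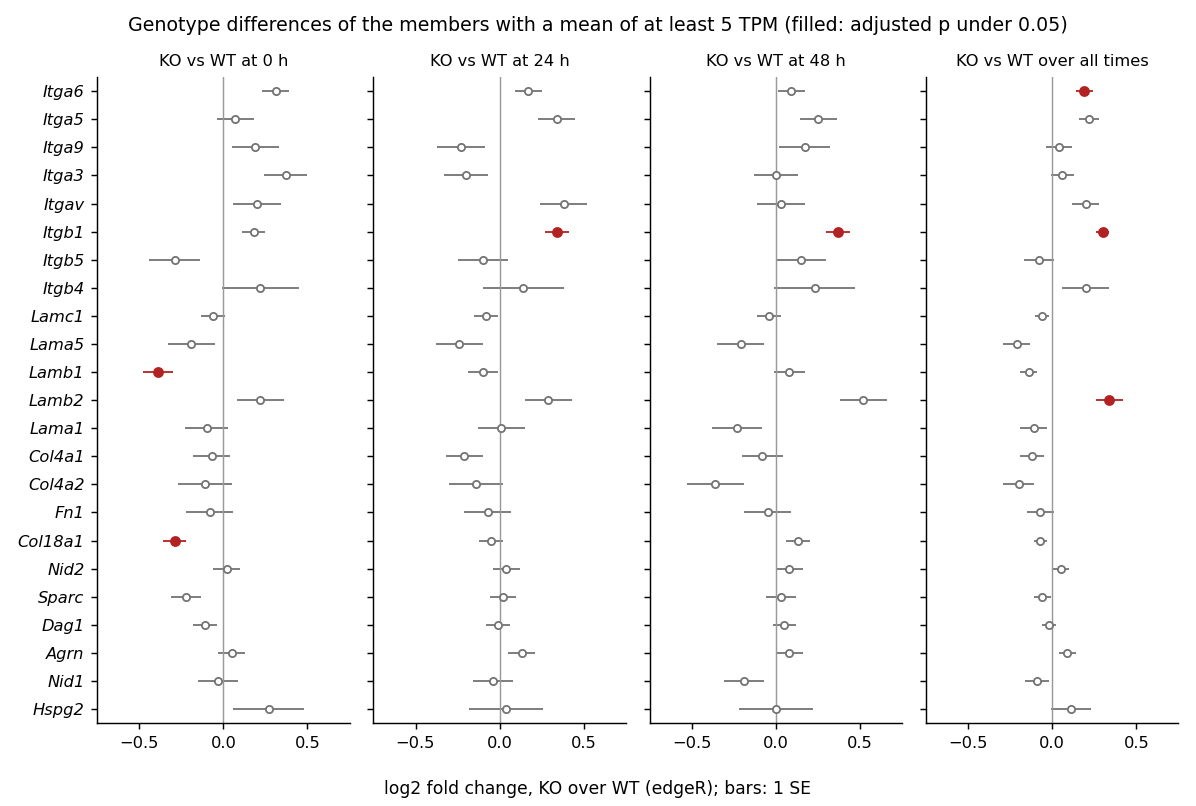
Log2 fold change of KO over WT (x axis, bars 1 SE) at each time and over all times, for the 23 genes with a mean of at least 5 TPM (rows), with genes of adjusted p under 0.05 filled. Itgb1 lies above 0 in all 4 panels, and Lamb1 and Col18a1 lie below 0 at 0 h.

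Lama4 (chr10:38965515-39110188), an alpha chain of vascular basement membranes, read 0.206 and 0.33 TPM in WT at 0 h, 0.0871 and 0.296 at 24 h and 0.351 and 0.258 at 48 h. The KO values were 0.0921 and 0.353, then 0 and 0.0964, then 0.0555 and 0.106 TPM, at 0 to 17 estimated counts. Lama4 lies in a stretch of chromosome 10 that was known from earlier results to be lower in the KO clone. The part of that stretch in the Lama4 values was not tested. Col18a1, lower in KO cells at 0 h, is also on chromosome 10 (chr10:77052178-77166548). Its place relative to the stretch was not examined. The difference over all times was -1.46 ± 0.86 (adjusted p = 0.43, edgeR's quasi-likelihood test), which was not detectable as a change at this depth. Without KO 24 h replicate 2, which leaves the KO library with 0 counts alone at 24 h, it was -3.35 (adjusted p = 0.02, the same test). Lama3, the alpha chain of epidermal laminin, was at 0.132 to 0.811 TPM in KO and 1.02 to 1.60 TPM in WT libraries, without overlap, and its difference of -1.03 ± 0.34 had an adjusted p of 0.086 in edgeR's quasi-likelihood test. DESeq2 (-1.04, adjusted p = 0.04) and the fit without a filter on low counts (-1.04, adjusted p = 0.034) called it.

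Further genes of the pathway were counted on lists. Of 34 integrin adhesion and linker genes, which connect integrins to actin, 6 rose and 15 fell over 48 h in WT, beside 11.1% and 12.5% of all genes, and 5 rose and 15 fell in KO cells, beside 12.1% and 12.8%. The largest falls in WT were of Parvb (-2.53 ± 0.11), a parvin bound by integrin-linked kinase, Tns1 (-1.73 ± 0.15), a tensin, and Kank2 (-1.35 ± 0.09), which binds talin. Parvb went from 98.8 and 93.9 TPM at 0 h to 23.2 and 22.7 at 24 h and 17.2 and 14.1 at 48 h in WT. The largest rises were of Fermt1 (3.31 ± 0.38), a kindlin that activates integrins, Bcar1 (1.12 ± 0.11) and Tes (1.11 ± 0.26). Over all times 1 gene of this list differed between the genotypes, beside 2.19% higher and 2.84% lower among all genes: Lims1, an adaptor of integrin-linked kinase, was lower in KO cells (-0.65 ± 0.08, adjusted p = 3.9e-05, edgeR's quasi-likelihood test). Whether Lims1 lies in the chromosome 10 stretch that is lower in the KO clone was not examined.

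Of 20 other matrix receptors, 5 rose and 4 fell in WT over 48 h and 7 rose and 2 fell in KO cells, beside the same shares of all genes (11.1% and 12.5%, and 12.1% and 12.8%). Gpc1 (0.90 ± 0.17), Sdc1 (0.77 ± 0.17) and Gpc3 (0.65 ± 0.14), which are heparan sulfate proteoglycans of the cell surface, rose most. Ddr2 (-1.14 ± 0.23), a collagen receptor, Cd9 (-1.09 ± 0.11), a tetraspanin, and Bcam (-0.93 ± 0.11), which binds laminin alpha 5, fell most. Between genotypes Cd9 (0.23 ± 0.06) and Cd81 (0.20 ± 0.05) were higher and Ddr2 (-0.68 ± 0.13) lower in KO cells over all times. Of 24 further matrix genes tested, 2 rose and 4 fell in WT and 3 rose and 2 fell in KO cells, beside the shares of all genes given above. Ntn1 (netrin 1) was the largest fall and went from 54.1 and 46.6 TPM at 0 h to 3.62 and 3.91 TPM at 48 h in WT and from 72.7 and 80.9 to 2.61 and 3.88 TPM in KO libraries. It was higher in KO cells at 0 h (0.55 ± 0.11, adjusted p = 0.016, edgeR's quasi-likelihood test) and not called at 48 h (-0.20 ± 0.13). Over all times 2 of the 24 were higher and 0 lower in KO cells, beside 2.19% and 2.84% of all genes. Smoc1 (-0.45 ± 0.11) and Ltbp1 (-0.71 ± 0.22) also fell in WT, and the thrombospondins Thbs1 (2.59 ± 0.63) and Thbs2 rose, Thbs2 from 0 and 0.00811 TPM at 0 h to 1.398 and 1.098 TPM at 48 h. Of the 8 remaining integrin subunits tested, 1 rose and 1 fell in WT, and 0 rose and 2 fell in KO cells, numbers too small to set against the shares of all genes (11.1% and 12.5% in WT). Itgb7 was the one that fell in both, by 1.43 ± 0.19 in WT and 1.81 ± 0.20 in KO cells. The other fall in KO cells was of Itgal (-1.05 ± 0.33), and the rise in WT was of Itgb2, which was listed at 0 TPM in both libraries at 0 h and read 0.275 and 0.558 TPM at 48 h.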

How the data were processed

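Each of the 6 groups (WT or CIDEA KO at 0, 24 or 48 h) had RNA libraries of 2 samples, which the study calls independent. The authors removed adaptors and low-quality bases with Trimmomatic 0.33, then ran kallisto 0.43.1. The deposited tables hold an unscaled estimated count, often fractional, for each of 115270 transcripts. They also hold TPM, for which the authors' tool corrects counts for effective length and sets each library to one total. The transcript set was not given in the sources used here. By identifier, 113580 transcripts (98.5%) matched GENCODE M21 (GRCm38) and were summed to 35580 genes, and the rest (0.659 to 0.709% of the counts) were left out. Reads shared by similar genes are divided by kallisto, so small values of related chains are uncertain. The members and all lists were chosen with earlier results of these data known.

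Count sums were rounded and tested in edgeR 4.0.16 (R 4.3.3) with its quasi-likelihood test, TMM, filterByExpr and 1 mean per group over 12 libraries, with Benjamini-Hochberg adjustment over 17424 genes and a threshold of 0.05. Standard errors were computed as the log2 fold change over the square root of F. The values ± given for log2 changes are these. The fit was tested on simulated counts with known changes and missed many of them, so a gene that was not called may still have changed. Alternatives were DESeq2 1.42.0, its size factors in edgeR, no filter, a mean of at least 10 counts, only the groups compared, transcript length as an offset, limma 3.58.1 on log2(TPM + 1) or log2(TPM + 0.1), the replicate number as a block, and each library left out. Every gene of the list is accounted for. From the other lists, at most 3 called genes with the largest rise and 3 with the largest fall and a mean log2 CPM of at least 1 were named, and Itgb7, Itgal and Itgb2 as the called genes of a list with few, Itgal and Itgb2 after their values were seen.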

Additional observations from a re-analysis of the deposited data

How the results depend on the processing

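Of 102 calls of a listed gene in a comparison, 50 kept direction and side of the threshold in every alternative run, library removals included. DESeq2, its size factors in edgeR, a mean of at least 10 counts and no filter lost none.

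The number called at WT 24 h against 0 h (11) was 7 in limma on TPM with either pseudocount and 7 to 13 with a library left out (lowest without WT 24 h replicate 1), at WT 48 h against 24 h (16) it was 6 in limma and 10 to 20 (lowest without WT 48 h replicate 1), and at WT 48 h against 0 h (20) it was 10 in limma. At KO 24 h against 0 h (15) it was 9 in limma and 9 to 22 with a library left out (lowest without KO 0 h replicate 2, highest without KO 24 h replicate 2). At 0 h the genotype count (2) was 0 with only the groups compared, transcript length as offset or limma, and 0 to 3 with a library left out. At 24 h (1) it was 0 in the same 4 analyses and 0 to 11, and at 48 h (1) 0 with length offset and limma and 0 to 1. Over all times (3) it was 6 in DESeq2 and without a filter, 1 with length offset and limma and 1 to 12. The interaction at 24 h (0) ranged to 4 and at 48 h (0) to 1 with a library left out, and DESeq2 called 2 at 48 h. The cause was not tested.

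Itgb4 from 24 h to 48 h in WT turned from -0.84 to 0.04 with length offset and 0.03 in limma, and Itga9 from 0 h to 24 h in KO cells from -0.62 to 0.01 with length offset.

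With a replicate block the counts, in the order of time steps in WT and then KO cells, were 10, 15, 20, 14, 14 and 19, and between genotypes 3, 1, 1 and 3. The deviations of same-numbered libraries from their group means correlated at -0.049 to 0.051 between groups. No strong pattern over all genes went with the replicate number. The correlations cannot tell whether same-numbered libraries were prepared together. Low genes rest on few counts, 0 to 50 for Itgb8.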

Other observations

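Genes that modify and turn over the matrix were counted in the same way. Of 33 such genes tested, 3 rose and 11 fell between 0 h and 48 h in WT, and 4 rose and 11 fell in KO cells (edgeR's quasi-likelihood test). Of all genes, 11.1% rose and 12.5% fell in WT and 12.1% rose and 12.8% fell in KO cells, so the share that rose was near that of all genes. The falls in WT were led by Plod1 (-1.44 ± 0.15), a lysyl hydroxylase of collagen, Mmp11 (-1.35 ± 0.13), a stromelysin, and Timp1 (-1.29 ± 0.23), an inhibitor of metalloproteinases. The rises were of Sulf1 (1.93 ± 0.12), which removes sulfate from heparan sulfate, Pxdn (1.44 ± 0.12), the peroxidase that crosslinks collagen IV, and Timp3 (1.21 ± 0.29). Pxdn read 6.01 and 5.58 TPM in WT at 0 h, 11.9 and 12.5 at 24 h and 15.8 and 15.9 at 48 h, while Col4a1 and Col4a2 fell over the same 48 h. In KO libraries Pxdn read 5.29 and 6.24, then 13.5 and 11.2, then 15.4 and 14.8 TPM.

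Between genotypes over all times, 4 of these genes were higher and 2 lower in KO cells, beside 2.19% and 2.84% of all genes. Bmp1 (1.04 ± 0.21), a procollagen protease, Plod2 (0.39 ± 0.06) and Serpinh1 (0.31 ± 0.08), a collagen chaperone, were higher, and P4ha1 (-0.55 ± 0.09), a prolyl hydroxylase, and Loxl2 (-0.37 ± 0.09) were lower. Whether the lower genes lie in the chromosome 10 stretch that is lower in the KO clone was not examined. Plod2 read 48.1 and 43.3 TPM in KO libraries against 35.9 and 36.1 TPM in WT at 0 h, 28.6 and 35.5 against 23.2 and 24.6 TPM at 24 h and 48.1 and 44.6 against 35.2 and 31.1 TPM at 48 h, without overlap at any time.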
